A study of Homo sapiens with 5 samples.

Results

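Mesenchymal identity genes and luminal keratins were examined in MDA-MB-231, a triple-negative human breast cancer cell line of mesenchymal-like character. They are 10 genes chosen by symbol: VIM, LGALS1, AXL, S100A4, CAV1, MSN, CD44 and SNAI2 on the mesenchymal side, and KRT18 and KRT8 on the luminal keratin side. All 10 are among the 4202 genes of the deposited table. Cells were kept for 4 h with CGI-1746, which the labels name a BTK inhibitor, with LU-102, a proteasome inhibitor, with CGI-1746 plus LU-102, with bortezomib, a clinical proteasome inhibitor that served as the control for proteasome inhibition, or without inhibitor (mock). All 5 groups are the same parental line, with no engineered allele named in the labels, and doses are not stated in the sources used here. Each condition has 1 library of total RNA, so the values have no replicate error and differences between conditions were not tested.

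Vimentin and the keratins are the cytoplasmic intermediate filament proteins of mesenchymal and epithelial cells. Keratin filaments are built from a type I and a type II keratin, and KRT18 and KRT8 are the usual pair of simple and luminal epithelium. In the epithelial to mesenchymal transition, repressors such as SNAI2 bind E-box motifs and silence epithelial genes, while VIM, CD44 and AXL become abundant. MDA-MB-231 is widely used as a model of that mesenchymal state, and it is known to keep some keratin expression.

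The values are normalized levels, which the table's header calls least squares means, and whose scale is not stated. Short single-exon RNAs showed that a level is a read count over the gene's length and a factor of its library, so levels of different genes can be compared per length. If the unit is RPKM, the libraries held between 16800000 and 18600000 reads. The bortezomib library stood apart from the others: its median level over all genes was 1.07, against 2.88 to 3.09 in the other treated libraries and 3.05 in mock. Levels summed over protein-coding genes other than histones came to 11859 with bortezomib, against 30869 to 34316 in the other treated libraries and 32169 in mock. Summed over all genes, levels were highest with bortezomib, at 135512, against 100684 to 126120 in the other treated libraries and 99255 in mock. In bulk RNA, fewer cells that express a gene and less of its RNA per cell cannot be told apart. Normalized levels do not separate either from a larger share of other RNAs in the library. Of the defining epithelial and luminal markers, CLDN4 and CLDN7 were measured, and CDH1, EPCAM, ESRP1, GRHL2, CLDN3, ESR1, PGR, GATA3 and FOXA1 were not analysed here. No marker of blood or endothelial cells was analysed here either.

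The mesenchymal genes covered a wide range of levels, with filament and lectin RNA at the top and the transcription factor near the bottom. VIM (chromosome 10, 17228241 to 17237593), the vimentin gene, had a level of 82.1 with CGI-1746, 82.3 with LU-102, 90.3 with CGI-1746 plus LU-102 and 18.3 with bortezomib, against 92.1 in mock. LGALS1 (chromosome 22, 37675636 to 37679802), which encodes the secreted and cytosolic lectin galectin-1, had 51.5, 59.3, 62.7 and 5.50 in the same 4 treatments, against 48.4 in mock. These were the most abundant mesenchymal RNAs of the 4 libraries other than bortezomib, and galectin-1 RNA lost that place in the bortezomib library, where it was 5th of the 10 genes.

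AXL (chromosome 19, 41219223 to 41261766), the receptor tyrosine kinase that binds GAS6, had a level of 17.9 with CGI-1746, 17.1 with LU-102, 18.3 with CGI-1746 plus LU-102 and 8.36 with bortezomib, against 17.7 in mock. S100A4 (chromosome 1, 153543621 to 153545806), a calcium-binding protein that acts on non-muscle myosin, had 14.3, 15.4, 16.9 and 7.67 in these treatments, against 17.3 in mock. AXL was the higher of the pair in each of the 5 libraries, although their ranges over the 4 libraries other than bortezomib overlapped, at 17.1 to 18.3 and 14.3 to 17.3. With bortezomib they stood 2nd and 3rd of the 10 genes, behind VIM alone.

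CAV1 (chromosome 7, 116525009 to 116561185), the main coat protein of caveolae, had a level of 8.88 with CGI-1746, 8.52 with LU-102, 8.75 with CGI-1746 plus LU-102 and 0.895 with bortezomib, against 9.64 in mock. MSN (chromosome X, 65588377 to 65741931), which encodes moesin, a linker of actin to the membrane, had 5.60, 5.37, 5.59 and 0.859 in these treatments, against 5.67 in mock. CD44 (chromosome 11, 35139171 to 35232402), a hyaluronan receptor, had 4.49, 4.34, 4.37 and 1.02 in the treatments, against 4.91 in mock. The levels of MSN and CD44 did not overlap between these genes in the libraries other than bortezomib, whereas in the bortezomib library CD44 was the higher one.

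SNAI2 (chromosome 8, 48917598 to 48921429), the zinc finger repressor also called Slug, had a level of 5.91 with CGI-1746, 5.36 with LU-102, 4.81 with CGI-1746 plus LU-102 and 0.814 with bortezomib, against 4.85 in mock. It overlapped with MSN and CD44 over the libraries other than bortezomib and was highest with CGI-1746.

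The keratin pair was uneven in level. KRT18 (chromosome 12, 52948855 to 52952906), the type I keratin, had a level of 35.7 with CGI-1746, 33.9 with LU-102, 37.6 with CGI-1746 plus LU-102 and 5.69 with bortezomib, against 35.5 in mock. KRT8 (chromosome 12, 52897191 to 52949860), its type II partner, had 2.35, 2.32, 2.48 and 0.720 in these treatments, against 2.02 in mock. KRT18 stood 3rd of the 10 genes in every library but bortezomib, where it was 4th, and KRT8 was the lowest of the 10 in each of the 5 libraries. The annotated span of KRT8 overlaps that of KRT18 by 1006 bp, and RefSeq names 52 KRT8 and 68 KRT18 pseudogenes. How the authors assigned reads shared with these copies is not stated in the labels, and the gene lengths they used are not known, so the size of the gap between the keratins is uncertain. VIM overlaps the antisense gene VIM-AS1 by 1745 bp, and the span of CD44 overlaps that of CD44-AS1 by 5393 bp. Without strand, reads of VIM and CD44 cannot be told apart from those of their antisense genes in these overlaps. S100A4 overlaps S100A5 and the long noncoding gene LOC101928034 by 65 bp each.

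**Figure D1:**
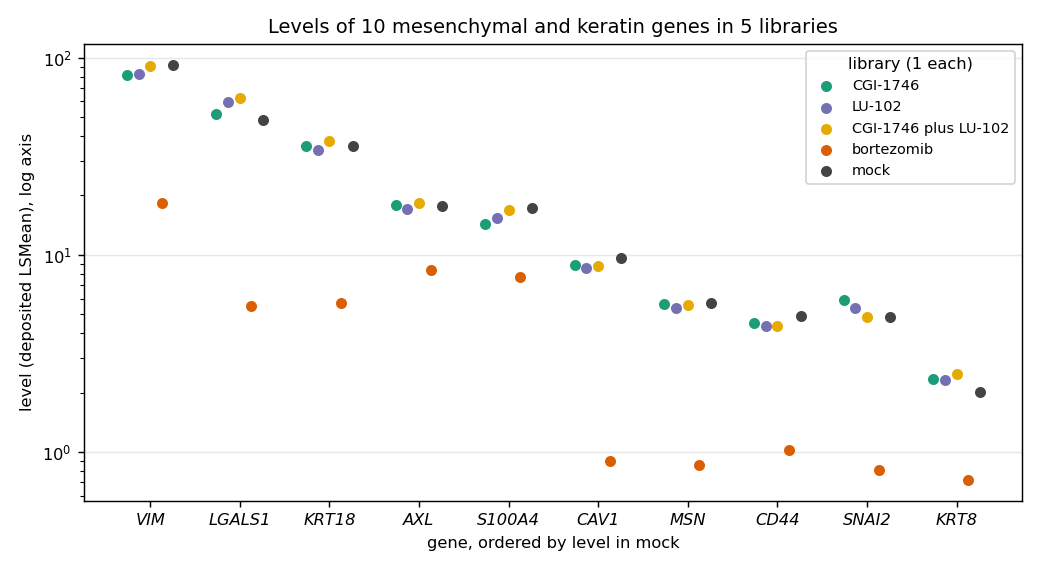
Levels of the 10 genes on a log axis, ordered by their level in mock, with 1 point per library. The bortezomib point is the lowest for each gene, and the other 4 points lie close together, as for VIM at 82.1 to 92.1.

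How precisely each level is known depends on its reads, which can only be approximated from transcript length. With bortezomib VIM rested on about 636 reads, AXL on 498, KRT18 on 165, S100A4 on 81, MSN on 63, LGALS1 on 57, CAV1 on 42, SNAI2 on 34, and CD44 and KRT8 on 25 each. In mock, VIM rested on about 2898 reads, AXL on 956, KRT18 on 935, LGALS1 on 457, CAV1 on 412, MSN on 377, SNAI2 on 181, S100A4 on 166, CD44 on 110 and KRT8 on 64. The estimate is loosest for CD44, whose annotated transcripts give between 40 and 474 reads in mock, and for CAV1, with 97 to 520. Intervals below are exact Clopper-Pearson intervals at 95% on these approximate reads, and they cover counting error only, not the variation between cultures.

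CGI-1746 against mock asked what the kinase inhibitor does alone, and in its 1 library the 10 genes lay close to mock. On log2(level + 1), none of the 10 was changed 2-fold or more, where 0.167% of the 4186 genes compared were. VIM was lower by a ratio of 0.892 (interval 0.845 to 0.940), a log2 difference of -0.16 at percentile 8.58 of all genes compared. It was the one gene of the 10 whose interval lay off 1. S100A4 had the lowest log2 difference of the 10, -0.26 at percentile 2.25, yet its ratio of 0.827 had an interval of 0.657 to 1.05. SNAI2 had the highest, 0.24 at percentile 96.5, and its ratio of 1.22 had an interval of 0.999 to 1.49. The 8 mesenchymal genes had a median log2 difference of -0.06, with 3 above 0 and 5 below, beside an all-gene median of -0.02 with 43.3% of genes above 0.

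LU-102 against mock set the library of this proteasome inhibitor alone beside that of mock. None of the 10 was changed 2-fold or more, beside 0.0715% of 4193 genes. LGALS1 was higher at a ratio of 1.23 (interval 1.08 to 1.39), a log2 difference of 0.29 at percentile 97.2. VIM was again lower, at a ratio of 0.894 (interval 0.847 to 0.942), but its log2 difference of -0.16 stood only at percentile 21.3. The intervals of the other 8 genes held 1. The mesenchymal median of -0.11 lay near the all-gene median of -0.06, and 2 of the 8 were above 0, beside 35.8% of all genes. CGI-1746 and LU-102 were compared with the same mock library, so a level that is high or low in mock moves both ratios together.

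CGI-1746 plus LU-102 against mock asked what the inhibitors do together. None of the 10 was changed 2-fold or more, beside 0.215% of 4189 genes. LGALS1 was higher at a ratio of 1.29 (interval 1.14 to 1.47), a log2 difference of 0.37 at percentile 95.9, and this was the highest of the 10. VIM was at a ratio of 0.980 (interval 0.930 to 1.03). With median-of-ratios scaling its log2 difference of -0.03 became -0.13, beside -0.13 for CGI-1746 alone and -0.13 for LU-102 alone. Scaled to the sum over protein-coding genes other than histones, these were -0.12, -0.14 and -0.10. Whether VIM lay nearer to mock with both inhibitors than with 1 thus depends on the scaling. CD44 and CAV1 had the lowest log2 differences, -0.14 and -0.13, at percentiles 11.3 and 13.1, with intervals that held 1. KRT18 and KRT8 had ratios of 1.06 and 1.23, and the interval of KRT8, 0.869 to 1.73, shows how little its 79 and 64 reads can resolve. The direction of KRT18 is not firm, since its log2 difference of 0.08 became -0.02 and -0.01 in the same 2 scalings. The 8 mesenchymal genes had a median of -0.02, beside 0.03 for all genes.

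**Figure D2:**
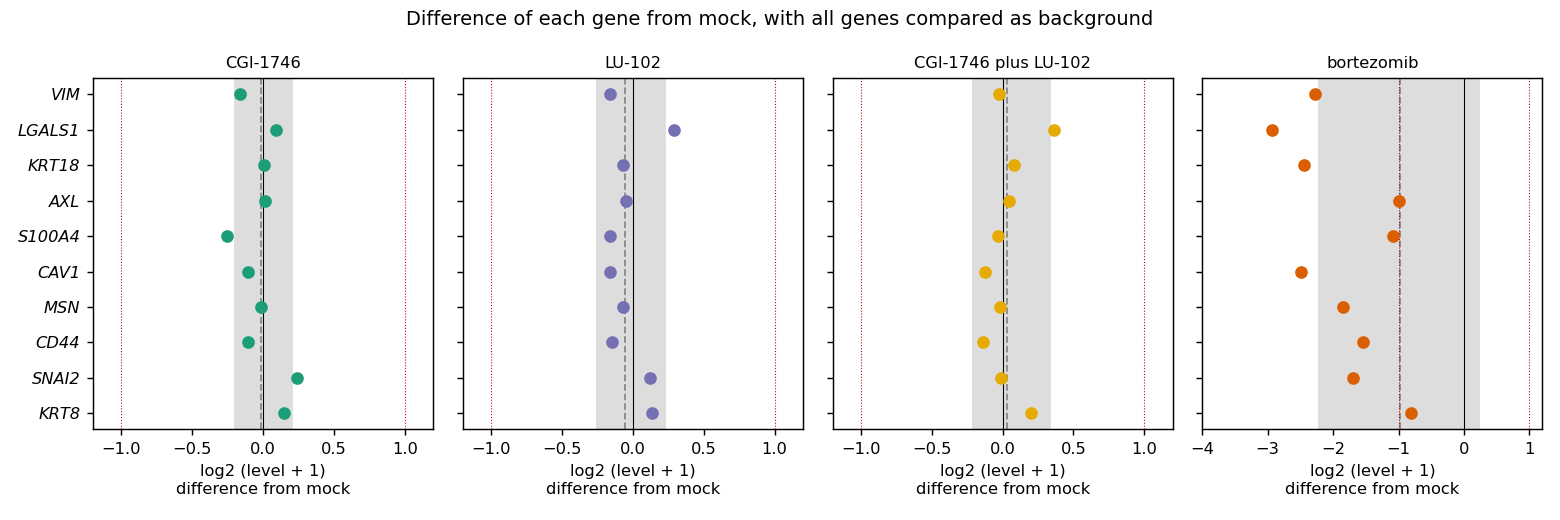
Difference of each gene from mock on log2(level + 1), with 1 panel per treatment and a wider axis for bortezomib. The grey band holds the central 90% of all genes compared, the dashed line is their median and the dotted red lines mark 2-fold. Points lie near 0 in the first 3 panels, and with bortezomib they run between -2.93 and -0.81.

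Setting the combination against each single agent asked what each inhibitor added to the other. Against CGI-1746 none of the 10 was changed 2-fold or more, beside 0.0954% of 4193 genes. LGALS1 was higher at a ratio of 1.22 (interval 1.08 to 1.37), VIM was higher at 1.10 with an interval of 1.04 to 1.16, and SNAI2 was lower at 0.813 with an interval of 0.664 to 0.992. The SNAI2 difference, -0.25 on the log2 scale, stood at percentile 1.29 of all genes, of which 66.8% were above 0. The direction of VIM is not firm: its log2 difference of 0.13 became -0.0046 with median-of-ratios scaling and 0.022 with protein-coding scaling. That of LGALS1, 0.28, became 0.14 and 0.17 in these scalings, and SNAI2 stayed lower at -0.37 and -0.35. Against LU-102 none of the 10 was changed 2-fold or more either, beside 0.143% of 4193 genes. VIM and KRT18 were higher in the combination at ratios of 1.10 and 1.11, with intervals of 1.04 to 1.16 and 1.01 to 1.21. Neither direction is firm, since the log2 differences of 0.13 and 0.15 became -0.0046 and 0.012 with median-of-ratios scaling and -0.019 and -0.0025 with protein-coding scaling. Of the 10 genes 9 were above 0 in that comparison, and so were 80.0% of all genes, whose median was 0.08.

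Departure from additivity sets the combination against the sum of both single effects, on log2(level + 1). No gene of the 10 departed by 1 log2 unit or more, beside 0.143% of 4197 genes. SNAI2 had the lowest departure, -0.37 at percentile 1.07, since its level was 5.91 and 5.36 with the single agents and 4.81 with both. S100A4 had the highest, 0.38 at percentile 96.9, followed by VIM with 0.30 at percentile 91.5. With median-of-ratios scaling these became -0.52 for SNAI2, 0.22 for S100A4 and 0.12 for VIM. The median over the 8 mesenchymal genes, 0.10, was that of all genes, 0.10. The SNAI2 values rest on about 181 to 223 reads a library, and those of S100A4 on about 139 to 166. Departures carry no interval here, and each interval of S100A4 in the comparisons among these libraries held 1.

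Bortezomib against mock set the library of the control proteasome inhibitor beside that of mock, and there every one of the 10 genes had a lower level. So had 3862 of the 4189 genes compared. On log2(level + 1), 8 of the 10 were 2-fold or more lower, in a library where 48.1% of the 4189 genes compared were, so the count has to be read against that general drop. LGALS1 was lower by log2 -2.93 at percentile 1.48, CAV1 by -2.49 at percentile 3.01, KRT18 by -2.45 at percentile 3.32 and VIM by -2.27 at percentile 4.63. On that scale these 4 were also 2-fold or more lower than the all-gene median of -0.98, as 7.83% of all genes were. Which genes pass depends on the pseudocount. Without one the all-gene median was -1.63, and VIM, at -2.33, lay less than 2-fold below it. MSN, at -2.72, then lay more than 2-fold below it. MSN, SNAI2 and CD44 had log2 differences of -1.84, -1.69 and -1.55, at percentiles 10.2, 13.6 and 18.2.

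On log2(level + 1) the remaining genes lay near the all-gene median or above it. AXL had a log2 difference of -0.9998, just short of 2-fold, at percentile 48.1, and S100A4 had -1.08 at percentile 42.7. KRT8 had -0.81 at percentile 61.4, a value that the pseudocount shrinks because the gene is low. Without a pseudocount AXL, S100A4 and KRT8 had -1.08, -1.17 and -1.49, all above an all-gene median of -1.63. The directions of AXL and S100A4 are not firm: scaled to the sum over protein-coding genes other than histones, they were higher with bortezomib, at 0.34 and 0.25, and with median-of-ratios scaling they had -0.11 and -0.19. That scaling turns every gene with a plain level ratio above 0.369 to higher, and it moves the all-gene median to -0.14, where median-of-ratios scaling moves it to -0.46. The median over the 8 mesenchymal genes was -1.77, beside -0.98 over all genes. The smaller sum of protein-coding levels in the bortezomib library moved with all 10 values, and its part in them was not tested.

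As plain ratios of levels, AXL and S100A4 lay above the other 6 mesenchymal genes. CAV1 had a ratio of 0.0928 to mock with an interval of 0.0655 to 0.127, and LGALS1 0.114 with 0.0842 to 0.149. MSN had 0.151, KRT18 0.160, SNAI2 0.168, VIM 0.199 and CD44 0.209, all below the all-gene median ratio of 0.324. KRT8 had 0.356 with an interval of 0.213 to 0.570, S100A4 0.443 with 0.334 to 0.580 and AXL 0.472 with 0.422 to 0.526. The interval of KRT8 overlapped those of VIM, SNAI2 and CD44 as well as those of S100A4 and AXL. The intervals of AXL and S100A4 lay above those of the other 6 mesenchymal genes, of which CD44 reached highest at 0.320. Since the reads of CD44 are known only within a wide range, that last gap is the least sure.

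**Figure D3:**
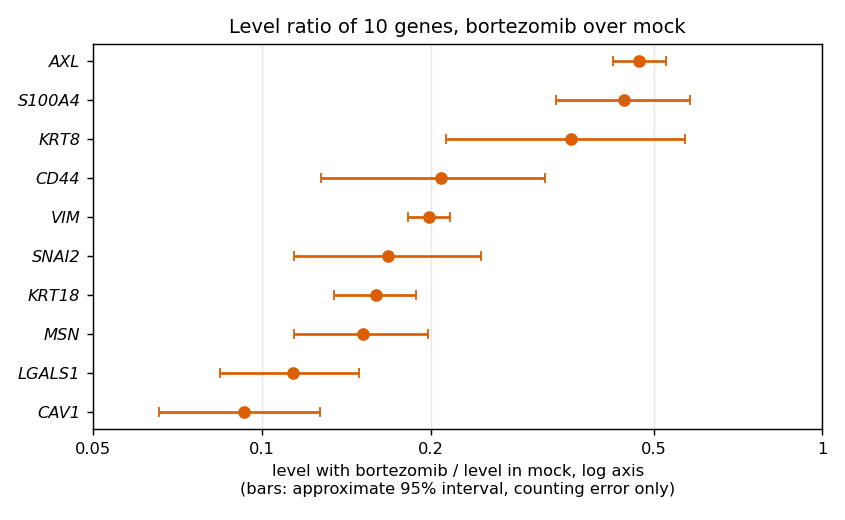
Ratio of the level with bortezomib to that in mock for each gene, on a log axis, with approximate 95% intervals for counting error only. AXL at 0.472 and S100A4 at 0.443 lie highest, and CAV1 at 0.0928 lies lowest.

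The stretch of 250 bases before the annotated start is shown for VIM and CAV1, with ratios to mock of 0.199 and 0.0928, and for S100A4 and AXL, with 0.443 and 0.472. The table lists 3 starts for CAV1 and 2 for AXL, and the most upstream one is shown. Sequences come from RefSeq on GRCh38.p14, are written 5′ to 3′ on the strand of the gene in lower case, and capitals mark matches on either strand to the E-box CAGGTG, the AP-1 site TGACTCA, the GC box GGGCGG and the TATA box TATAAA. None of these motifs overlapped another in the stretches shown. VIM lies on the plus strand at chr10:17227991-17228240, CAV1 on the plus strand at chr7:116524759-116525008, S100A4 on the minus strand at chr1:153545807-153546056 and AXL on the plus strand at chr19:41218973-41219222.
VIM: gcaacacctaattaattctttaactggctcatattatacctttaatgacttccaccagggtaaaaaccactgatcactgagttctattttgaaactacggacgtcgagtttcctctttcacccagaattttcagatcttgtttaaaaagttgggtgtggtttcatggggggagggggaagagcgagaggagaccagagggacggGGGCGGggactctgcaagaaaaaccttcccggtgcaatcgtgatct
CAV1: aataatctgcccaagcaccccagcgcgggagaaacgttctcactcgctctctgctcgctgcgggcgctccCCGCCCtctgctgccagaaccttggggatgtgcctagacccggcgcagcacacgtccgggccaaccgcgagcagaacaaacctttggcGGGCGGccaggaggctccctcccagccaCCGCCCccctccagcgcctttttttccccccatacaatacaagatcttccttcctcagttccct
S100A4: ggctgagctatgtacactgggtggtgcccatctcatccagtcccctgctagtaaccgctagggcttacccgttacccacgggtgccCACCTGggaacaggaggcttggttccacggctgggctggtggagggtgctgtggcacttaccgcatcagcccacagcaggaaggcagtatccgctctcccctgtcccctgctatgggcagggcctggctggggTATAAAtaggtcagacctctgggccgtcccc
AXL: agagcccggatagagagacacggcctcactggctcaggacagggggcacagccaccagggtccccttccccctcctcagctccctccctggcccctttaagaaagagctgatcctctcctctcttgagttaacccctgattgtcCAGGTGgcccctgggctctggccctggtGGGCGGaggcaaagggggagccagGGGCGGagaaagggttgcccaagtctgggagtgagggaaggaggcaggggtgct

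Promoters of 7 of the 10 genes were searched, with 11 start sites in all. LGALS1 and KRT18 had no entry in the promoter table, and SNAI2 was left out of the search. The GC box was present before a start of 5 of the 7, VIM, CAV1, CD44, AXL and MSN, and in 42.6% of the 35116 promoters of the table over the same 250 bases. The E-box occurred in S100A4, 164 bases before the start, and in AXL, 106 bases before it, and in 17.5% of all promoters. The stretch before the other start of AXL held none of the motifs searched. Of the 7, only S100A4 held the TATA box, 31 bases before its start, as did 10.7% of all promoters. None of the 7 held the AP-1 site, which 4.20% of all promoters did. These are matches of letters and were not tested as binding sites.

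The place of a gene within its own library does not depend on how the library was scaled. CAV1 was above 42.6% of the 4202 genes with bortezomib and above 83.9% in mock, MSN above 41.0% and 71.7%, and SNAI2 above 38.6% and 67.1% in the same order. LGALS1 was above 88.8% of genes with bortezomib and 96.9% in mock, and VIM above 96.5% and 98.2%. AXL was above 92.5% with bortezomib and 91.3% in mock, and S100A4 above 92.0% and 91.1%, so both kept their place among the genes of the table. KRT8 was above 33.4% with bortezomib and 30.7% in mock.

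Ratios of a pair of genes within a library are free of that scaling too. KRT18 exceeded KRT8 by a ratio of 15.2 with CGI-1746, 14.6 with LU-102, 15.2 with CGI-1746 plus LU-102 and 7.90 with bortezomib, against 17.6 in mock. The KRT18 to KRT8 ratio with bortezomib was 0.449 times that in mock, with an exact conditional 95% interval of 0.272 to 0.772 on the approximate reads. VIM over KRT18 was 2.30 with CGI-1746, 2.43 with LU-102, 2.40 with CGI-1746 plus LU-102 and 3.22 with bortezomib, against 2.59 in mock. The VIM to KRT18 ratio with bortezomib was 1.24 times that in mock, with an interval of 1.03 to 1.51, and with CGI-1746 it was 0.888 times that in mock, with an interval of 0.798 to 0.987. With LU-102 and the combination the intervals of this ratio held 1.

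**Figure D4:**
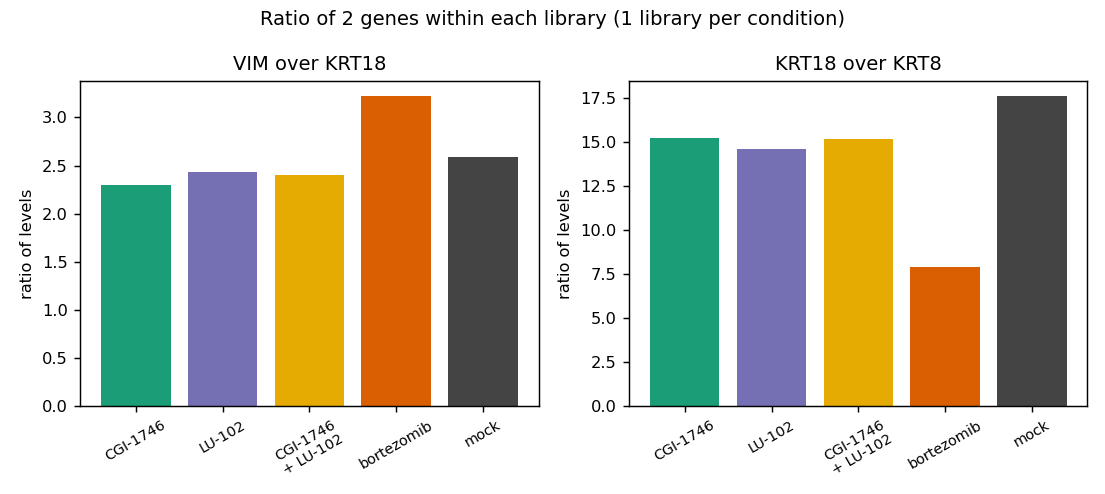
Level of VIM over that of KRT18 (left) and of KRT18 over that of KRT8 (right) within each library, as bars from 0 with 1 library per condition. The right panel shows 7.90 with bortezomib and 14.6 to 17.6 elsewhere.

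LU-102 and the combination were also set against bortezomib, the control for proteasome inhibition. With LU-102 all 10 genes were higher than with bortezomib, as were 92.5% of the 4192 genes compared. On log2(level + 1), 7 of the 10 were 2-fold or more higher, beside 43.1% of all genes compared. As plain ratios all 10 exceeded 2-fold, but so did the all-gene median ratio, at 2.95. LGALS1 led with a ratio of 10.8 and an interval of 8.25 to 14.5, then CAV1 with 9.52, SNAI2 with 6.59 and MSN with 6.24. KRT8 had 3.23, and AXL and S100A4 had ratios of 2.04 and 2.01, below the all-gene median. The directions of AXL and S100A4 are not firm here either. Scaled to the sum over protein-coding genes other than histones, both were lower with LU-102 than with bortezomib. With CGI-1746 plus LU-102 all 10 were 2-fold or more higher than with bortezomib on log2(level + 1), beside 49.4% of 4198 genes, and LGALS1 had a ratio of 11.4 (interval 8.73 to 15.3). Both comparisons share the bortezomib library with the one against mock, so they are no separate evidence of its low values.

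Relatives of each member were read beside it, from lists of genes that work in the same structure. Among caveolar genes 5 of 9 listed were measured. CAV2, the caveolin that assembles with caveolin-1, lies 16467 bp from CAV1 and was lower by log2 -2.07 with bortezomib, at a level of 1.60 against 9.92 in mock. CAVIN1 and CAVIN3, coat proteins of the cavin family, had -1.11 and -0.80, and their plain ratios of 0.439 and 0.551 lay above the all-gene median ratio of 0.324. CAVIN2, of the same family, was lower by -2.01 at a ratio of 0.0930, close to that of CAV1, and was singled out after its values were seen. In the other treatments CAV2 had -0.21 for CGI-1746, -0.34 for LU-102 and -0.29 for both, where CAV1 had -0.11, -0.16 and -0.13.

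Of the S100 and annexin list 10 of 17 genes were measured, and their median with bortezomib was -1.46, with 6 of the 10 2-fold or more lower, beside 48.1% of all genes. S100A6, a neighbour 7629 bp from S100A4, was lower by log2 -3.60 at a level of 15.4 with bortezomib, against 198 in mock, while S100A4 had -1.08. S100A10 was lower by -2.79, and its binding partner ANXA2, which was singled out after its values were seen, by -2.41. A nearer neighbour of S100A4, S100A3 at 1522 bp, had -0.82 and a low level of 0.474 with bortezomib against 1.60 in mock. S100A11 and ANXA5 had -0.91 and -0.85, with plain ratios of 0.502 and 0.512, so members of these families did not move alike.

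Other keratins and epithelial genes did not follow 1 course with bortezomib. KRT19, a further luminal type I keratin, was lower by log2 -1.45, at 3.79 with bortezomib against 12.1 in mock, a ratio of 0.314, where KRT18 had 0.160. CLDN4, a tight junction claudin, was higher by 0.85 at percentile 98.2, at a level of 33.3 with bortezomib against 18.1 in mock, and it was 0.45 higher with CGI-1746 plus LU-102, at a level of 25.1. Of the 33 epithelial genes listed 5 were measured, and their median was -0.10, beside -0.98 for all genes. XBP1, a factor of luminal cells and of the unfolded protein response, had -0.13 with bortezomib and 0.28 with the combination.

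Among further mesenchymal genes 20 of 40 listed were measured, and 10 of them were 2-fold or more lower with bortezomib, beside 48.1% of all genes, at a median of -1.02. That is close to the all-gene median, unlike the -1.77 of the 8 genes above. PLAU, urokinase, had -0.99 and MMP14, a membrane metalloproteinase, -0.85, while FOSL1, an AP-1 factor, was lower by -1.91. No gene of the 20 was changed 2-fold by either inhibitor or by both, where their medians were -0.04, -0.05 and -0.02.

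Of the remaining relatives, PLEC, the plectin that links intermediate filaments to other structures, had -0.17 with bortezomib, and LMNB2, a nuclear lamin, -1.40. EZR, the other measured member of the moesin family, was chosen after its values were seen and had -1.31, where MSN had -1.84. LGALS3BP, a galectin-binding glycoprotein, was lower by -1.19 with bortezomib and had 0.23 with LU-102 and 0.29 with the combination, where LGALS1 had 0.29 and 0.37. Of tetraspanins and other surface proteins listed with CD44, CD63 had -1.73, CD59 -1.42 and CD151 -1.21 with bortezomib. The tetraspanins CD82, with 0.06 at percentile 93.0, and CD81, with -0.32 at percentile 85.2, were lower in level than these in mock and were singled out after their values were seen. CD151 had 0.24 for CGI-1746, 0.38 for LU-102 and 0.39 for both. AXL's relatives TYRO3 and MERTK and its ligand GAS6 were not analysed here.

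**Figure D5:**
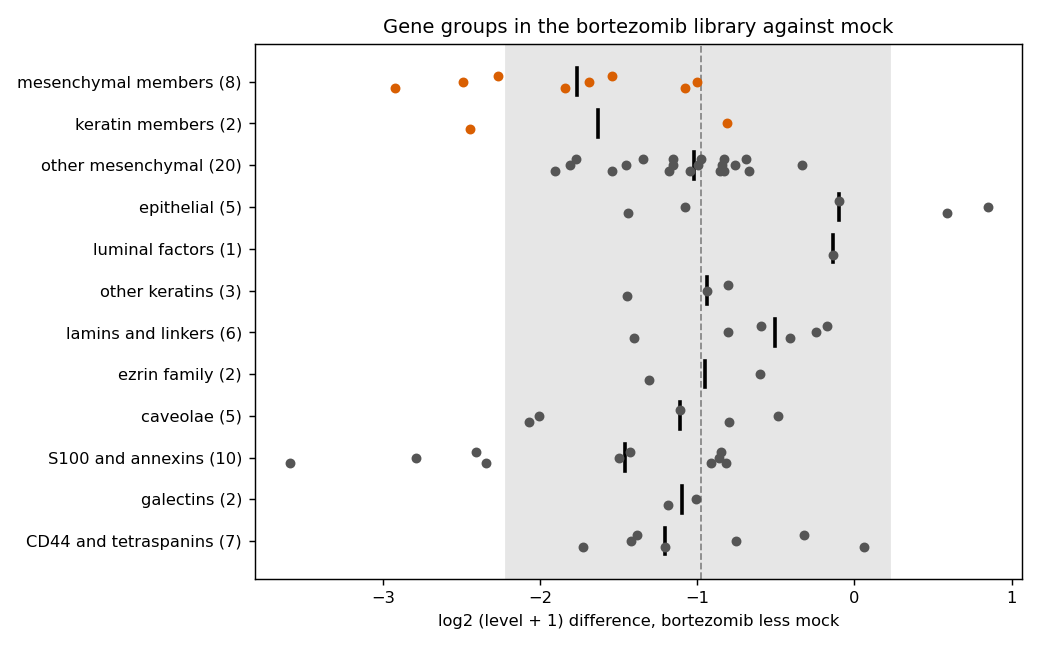
Log2(level + 1) difference of bortezomib from mock for each measured gene of each group, with the number of genes in brackets and a bar at the group's median. The grey band holds the central 90% of all genes and the dashed line is their median of -0.98. The 8 mesenchymal members lie between -2.93 and -0.9998, and CLDN4 of the epithelial group at 0.85.

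Genes whose pattern was most like that of VIM and KRT18 were found by the distance between their 4 log2 differences from mock, over the 1337 other genes whose mock level reached 5. Nearest to VIM were RPL10A, a ribosomal protein gene, at a distance of 0.0753, C11orf98 at 0.0919 and KPNB1, importin beta, at 0.111. Nearest to KRT18 were SRPRA, a signal recognition particle receptor subunit, at 0.0567, PSMA4, a proteasome subunit, at 0.0751 and H3P6, a histone H3 pseudogene, at 0.0799. All 4 differences share the mock library, and the bortezomib difference has the largest weight in them.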

How the data were processed

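MDA-MB-231 total RNA was sequenced as 150 bp pairs with 40000000 reads planned per library, per the labels. Partek and hg38 are named in the submitters' processing notes, and neither versions nor the aligner, annotation, strand, filter or normalization are stated there. The deposited table holds, for each gene and library, a normalized signal made by the authors and called a least squares mean in the header. Its 7 columns that repeat a library were identical to the columns used and were left out. The authors' ratio and p-value columns were not used.

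Levels were compared as log2(level + 1), with a pseudocount of 1, in genes that reached a level of 1 in one of the libraries compared, and called at 2-fold on that scale, which understates the change of low genes. With 1 library per condition no test was run. Plain ratios carry no pseudocount. Reads were approximated from the level, the median length of coding transcripts in GENCODE 29 and the step of level times length per read, which was 53.8 with bortezomib and 58.5 to 59.4 in the other libraries. In units of 0.5 reads, between 28 of 30 (mock) and 29 of 29 (LU-102) short RNAs lay within 0.1 of a whole number. Odds ratio intervals for pairs of genes are conditional exact intervals.

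The genes, lists, tests and thresholds were chosen with earlier results of these data known. Genes named from a list are its 4 highest in mock with a level of at least 5, and any changed 2-fold outside the comparisons with bortezomib, of which there was none. The rule as written also took genes changed 2-fold in LU-102 or the combination against bortezomib, which were not all named. For VIM and KRT18 the 3 nearest genes are named. EZR, ANXA2, CAVIN2, S100A3, CD81 and CD82 were chosen after their values were seen. The alternatives were other pseudocounts, filters and scalings. Scripts were tested on simulated data. Coordinates are RefSeq on GRCh38.p14, counted from 1. Software was scipy 1.17.1, pandas 2.3.3, numpy 2.4.6 and matplotlib 3.10.9 under Python 3.11.15. Results for some listed genes are not reported here.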

Additional observations from a re-analysis of the deposited data

How the results depend on the processing

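A value was taken to move where it changed by more than 0.0983, the robust SD of a log2 ratio over all genes, and a count where it changed by more than 1.5 times. With CGI-1746, LU-102 and both against mock, under each alternative run, the count of called genes stayed at 0 and the mesenchymal median moved by less than that SD. The largest of these shifts was for both inhibitors, from -0.024 to -0.119 with median-of-ratios scaling. Single genes did move there: with that scaling VIM went from -0.03 to -0.13, LGALS1 from 0.37 to 0.26 and KRT18 from 0.08 to -0.02. KRT8 went from 0.20 to 0.09 with a pseudocount of 5. For bortezomib against mock, the 8 called genes became 4 with a pseudocount of 5, with centring on the all-gene median and with scaling to protein-coding genes other than histones. The mesenchymal median of -1.77 became -2.29 with a pseudocount of 0.25, -0.84 with a pseudocount of 5, -2.06 with a level of at least 5, -1.25 with median-of-ratios scaling, -0.79 after centring, -0.87 with protein-coding scaling and -2.45 without a pseudocount, an alternative added after seeing the data. With a level of at least 5 the all-gene median was -1.43. AXL and S100A4 changed direction to 0.34 and 0.25 with protein-coding scaling.

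For LU-102 against bortezomib, the 7 called genes became 4 with a pseudocount of 5, after centring and with protein-coding scaling, and the median of 1.79 became 2.25, 0.83, 1.24, 0.88, 0.88 and 2.41 with pseudocounts of 0.25 and 5, median-of-ratios scaling, centring, protein-coding scaling and no pseudocount, in that order. For the combination against bortezomib, the 10 called genes became 4 with a pseudocount of 5 and after centring, 6 with median-of-ratios scaling and 3 with protein-coding scaling. Its median of 1.75 became 2.27, 0.83, 2.03, 1.14, 0.76, 0.77 and 2.43 with pseudocounts of 0.25 and 5, a level of at least 5, median-of-ratios scaling, centring, protein-coding scaling and no pseudocount. AXL and S100A4 reversed there, both to -0.38, with protein-coding scaling. Both genes also changed direction for LU-102 against bortezomib under that scaling.

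Small medians changed sign with median-of-ratios and protein-coding scaling: to -0.11 and -0.086 for the combination against CGI-1746, to -0.062 and -0.076 against LU-102, and to -0.054 and -0.053 for additivity, which was -0.00051 after centring. With 1 added to both levels, KRT18 over KRT8 was 10.97 for CGI-1746, 10.5 for LU-102, 11.1 for both and 3.89 for bortezomib, against 12.1 for mock, and VIM over KRT18 was 2.89 with bortezomib. The cause of these changes was not tested beyond the settings themselves. No paired analysis was possible because each condition has 1 library. Reads were lowest for KRT8 and CD44 in each of the 5 libraries.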
